A study of Mus musculus with 47 samples.

Results

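Nucleosome signal at CLK:BMAL1 binding sites was compared between wild-type mouse livers taken 2 h after lights on (ZT02) and 2 h after lights off (ZT14), where ZT is zeitgeber time in hours after lights on. The members were chosen by their labels alone: 8 of the 47 libraries of the series, 4 mice at each time, of the replicate series 11, 12, 26 and 27. The mice were wild-type C57BL/6 adults of 3 to 6 months, kept in 12 h light and 12 h dark for at least 2 weeks, and each library is 1 liver. Livers of Bmal1-/- mice of the same strain, age and light cycle (4 at ZT02 and 4 at ZT14) and wild-type livers of ZT06 and ZT18 (8 libraries) served for comparison, and the sources used here do not give the sex of the mice or the kind of Bmal1-/- allele. Nuclei of all groups were crosslinked with formaldehyde before digestion by micrococcal nuclease (MNase). Whole liver holds several cell types, and a loss of nucleosomes in some cells cannot be told apart from a smaller loss in all of them.

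CLOCK (CLK) and BMAL1 bind DNA together at E-box elements and drive the transcription of clock genes such as the Per and Cry genes, whose proteins in turn repress CLK:BMAL1. In mouse liver this binding is rhythmic and is known to be strongest during the day. MNase digests linker and nucleosome-free DNA, so a dip of MNase signal at a site marks DNA from which nucleosomes are absent in part of the cells.

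The table gives MNase signal, a scaled coverage averaged by the authors over sets of peaks where CLK:BMAL1 was bound in ChIP-seq, at 300 positions of 10 bp over a 3000 bp window. It holds 27 peak sets that share peaks: all peaks, 10 deciles of the peak list each named as 322 peaks, genomic classes, and the top peaks of these classes. The list names 3217 peaks in mm9. Introns hold 43.9% of them, transcription start sites (TSS) 18.1% and other parts of gene bodies 6.56%, while 9.14% are intergenic within 10 kb of genes and 22.3% lie farther than 10 kb away. Its first peak lies at a TSS on chromosome 7, from 52960041 to 52960760 (mm9). Single peaks have no MNase value in the table, so no gene is named. Along the list the peaks became narrower, from a median of 400 bp in its first 322 rows to 230 bp in its last 319, and the share at a TSS went from 23.3% to 15.4%. That the sets named as deciles follow the rows of the list was not tested. The set of the top 400 peaks was a mix of mostly the first decile (weight 0.813) and the second (weight 0.180).

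Depth was alike at both times. Relative to the shallowest library of the series it was 1.54 ± 0.384 at ZT02 and 1.49 ± 0.149 at ZT14 (SD, n = 4 mice each; exact permutation p = 0.8286). From 25787 to 43923 fragments covered each central position over all peaks, for a counting error between 0.477% and 0.623%, and 2391 to 4238 fragments did in the first decile, an error of 1.54% to 2.05%. These errors cover counting alone. Throughout, relative central signal stands for signal averaged within 150 bp of the middle in percent of the mean beyond 1000 bp (the flank), so that a lower value is a deeper trough and differences are in percentage points. Groups were compared by exact permutation, two-sided, over the 70 assignments of 8 mice, which cannot give a p below 0.0286.

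The first question was whether the trough over all sites differs between early day and early night. The mean difference was far smaller than the spread between mice. At ZT02 relative central signal over all peaks was 73.1%, 70.1%, 68.5% and 69.4% in replicates 11, 12, 26 and 27, and at ZT14 it was 70.5%, 67.5%, 74.7% and 68.5%. The groups overlapped over most of their range, with the highest value in replicate 26 of ZT14 and the lowest in replicate 12 of ZT14. The means were 70.3% ± 2.01 and 70.3% ± 3.17 (SD, n = 4 mice each), and ZT02 minus ZT14 was -0.0077 percentage points (SE 1.88; exact permutation p = 1). Shifts between -6.13 and 5.63 percentage points were not rejected by the same test at 0.05, so differences of that size in either direction were not excluded.

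The shape of the all-peak trough was compared next. Its lowest point lay at a mean of -17.5 bp from the window middle at ZT02 and -15 bp at ZT14. The minimum was 65.2%, 65.1%, 58.03% and 61.4% of the flank at ZT02 and 66.02%, 63.8%, 67.2% and 60.7% at ZT14, in the order of replicates above. The difference was -1.96 percentage points (SE 2.24; exact permutation p = 0.4), from -3.20 without ZT14 replicate 27 to -0.487 without ZT02 replicate 26. The width below the midpoint between minimum and flank was 270, 340, 250 and 280 bp at ZT02 and 340, 360, 260 and 290 bp at ZT14. Replicate 12 had a wide trough and replicate 26 a narrow one at both times, and the mean difference was -27.5 bp (SE 29.97; exact permutation p = 0.4), from -45.8 bp without ZT02 replicate 12 to -11.7 bp without ZT14 replicate 12. Between 150 and 500 bp from the middle, signal was 93.3% ± 1.52 and 93.2% ± 1.704 of the flank, and between 500 and 1000 bp it was 98.1% ± 0.307 and 97.5% ± 0.748 (SD, n = 4 mice each). With adjustment over the 3 distance bands neither differed (exact permutation p = 1 and 0.257; adjusted p = 1 and 0.771).

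On the scale of the authors, central signal over all peaks was 4.74 ± 0.187 at ZT02 and 4.78 ± 0.311 at ZT14, and flank signal 6.75 ± 0.161 and 6.797 ± 0.235 (SD, n = 4 mice each). Neither differed (exact permutation p = 0.771 for both).

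**Figure D1:**
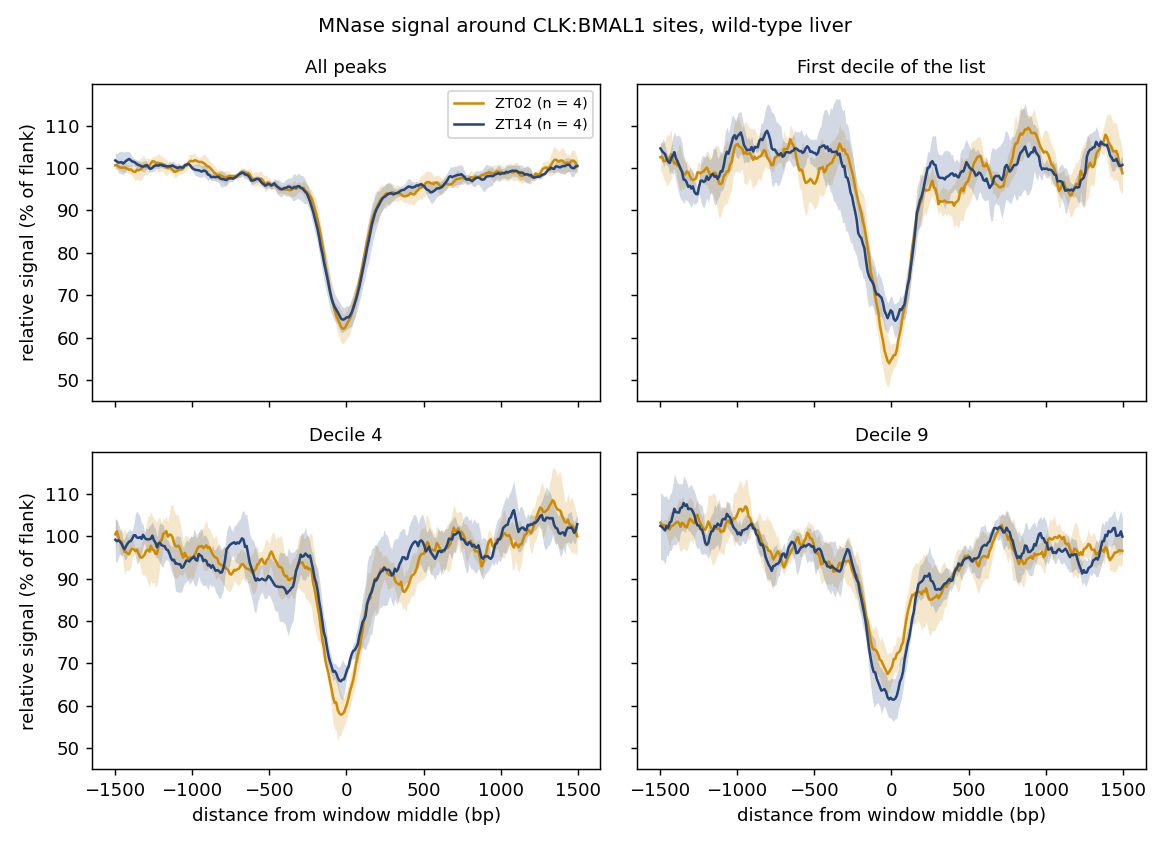
Relative MNase signal (percent of the flank) against distance from the window middle in bp at ZT02 and ZT14 in wild-type liver. Lines are means and bands ± SD of 4 mice, for all peaks, the first decile of the list, decile 4 and decile 9. The all-peak curves cross (ZT02 minus ZT14 is -2.18 percentage points at -15 bp and 2.38 at -165 bp), and the ZT02 curve is lower at the middle in the first decile and decile 4, and higher in decile 9.

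Position by position, limma was fitted to log2(relative signal + 1) of every peak set and position with the 24 wild-type libraries. The added 1 makes log2 differences slightly smaller than those of the signal itself. Of 8100 values, 0 (0%) were higher and 0 (0%) lower at ZT02 at adjusted p under 0.05. At an unadjusted p under 0.05, 1.6% of the values were higher and 2.2% lower. Together these shares stayed under the share of 0.05 that such a threshold passes by chance alone. In the all-peak profile 0 bp passed even the unadjusted threshold. The largest log2 difference stood at -15 bp from the middle and was -0.05 (SE 0.061, limma adjusted p = 0.9999). In percent of the flank the difference was larger at -1405 bp (-2.53 percentage points) than at -15 bp. Within 150 bp of the middle, positions past the unadjusted threshold were lower at ZT02 in 9 of the 27 sets, over 10 to 120 bp, and higher in 3, over 10 to 60 bp. The lower ones covered 120 bp in decile 4, 100 bp in the top 25% of TSS peaks, 90 bp in the first decile, 80 bp in the top 200 TSS peaks and 60 bp in decile 5. The higher ones covered 60 bp in the last decile and 50 bp in decile 9. Neighbouring positions share fragments and the sets share peaks, so these widths are no counts of separate sites.

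The sets were then taken one by one. Relative central signal was lower at ZT02 in 18 of 27 sets and higher in 9, with a median difference of -0.936 percentage points. The groups did not overlap in 2 of the 27 sets (7.41%), both lower at ZT02 with exact permutation p = 0.0286. With Benjamini-Hochberg adjustment over the 27 sets 0 passed, and the smallest adjusted p was 0.386. The spread between mice was larger at ZT14 than at ZT02 in 20 of 27 sets, with median SDs of 3.43 and 2.51 percentage points, and this difference in spread was not tested.

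Decile 4 was the first of these sets. Its values were 68.2%, 67.95%, 67.05% and 67.6% at ZT02 and 71.3%, 70.3%, 75.3% and 73.99% at ZT14, in replicates 11, 12, 26 and 27. All ZT02 mice lay within little more than 1 percentage point of each other and below all ZT14 mice. The difference was -5.02 percentage points (SE 1.205; exact permutation p = 0.0286, adjusted p = 0.386). It was -7.63 with the centre taken within 50 bp and -3.66 within 250 bp (exact permutation p = 0.0286 and 0.171), and without any 1 of the ZT02 mice of replicates 11, 12, 26 and 27 the exact p was 0.0571 (-5.19 to -4.80). The groups stayed apart without any 1 of these mice, so the higher p does not show that their separation rested on 1 mouse. On the scale of the authors, central signal in decile 4 was 4.60 ± 0.103 at ZT02 and 4.95 ± 0.225 at ZT14 (SD, n = 4 mice each). On that scale the groups overlapped (exact permutation p = 0.0571).

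The top 200 TSS peaks were the second. At ZT02 they had 61.7%, 60.8%, 56.5% and 54.9%, and at ZT14 62.2%, 63.4%, 65.5% and 61.8%. The highest ZT02 mouse, replicate 11, lay just under the lowest ZT14 mouse, replicate 27. The difference was -4.76 percentage points (SE 1.85; exact permutation p = 0.0286, adjusted p = 0.386). It was -7.55 with the centre within 50 bp (exact permutation p = 0.0571), -3.46 within 250 bp (p = 0.286) and -5.14 with the flank beyond 750 bp (p = 0.0571). Without any 1 of the ZT14 mice of replicates 11, 12, 26 and 27 it was -5.25 to -3.99 (exact permutation p = 0.0857 to 0.143). The groups still did not overlap without any 1 of these mice, so the higher p does not show that their separation rested on 1 mouse. In the top 25% of TSS peaks the groups overlapped, with a difference of -4.25 percentage points (SE 2.11; exact permutation p = 0.171, adjusted p = 0.661).

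Genomic classes gave no difference that passed the test. Promoter-proximal sites had the deepest trough of the classes at both times. All TSS peaks had 66.4%, 60.1%, 56.9% and 55.1% at ZT02 and 60.9%, 59.7%, 62.4% and 58.5% at ZT14, so that replicate 11 was the highest and replicate 27 the lowest mouse of ZT02. The means were 59.7% ± 4.96 and 60.4% ± 1.67 (SD, n = 4 mice each; difference -0.736 percentage points, exact permutation p = 0.8286). Intron peaks had 71.8% ± 1.71 and 72.3% ± 4.55 (SD, n = 4 mice each; difference -0.477, exact permutation p = 0.743). Gene body peaks outside introns, obtained by subtraction, had 72.6% ± 1.32 and 77.5% ± 6.10, a difference of -4.91 (exact permutation p = 0.257). Intergenic peaks within 10 kb had 74.9% ± 2.44 and 73.4% ± 4.47, and those beyond 10 kb 72.99% ± 2.09 and 70.5% ± 2.61, both higher on average at ZT02, by 1.48 and 2.47 (exact permutation p = 0.657 and 0.229). Within each mouse, intron peaks exceeded TSS peaks by 12.1 percentage points at ZT02 and 11.9 at ZT14, and the difference of 0.259 between the times was smaller than its SE of 2.40 (exact permutation p = 0.914).

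**Figure D2:**
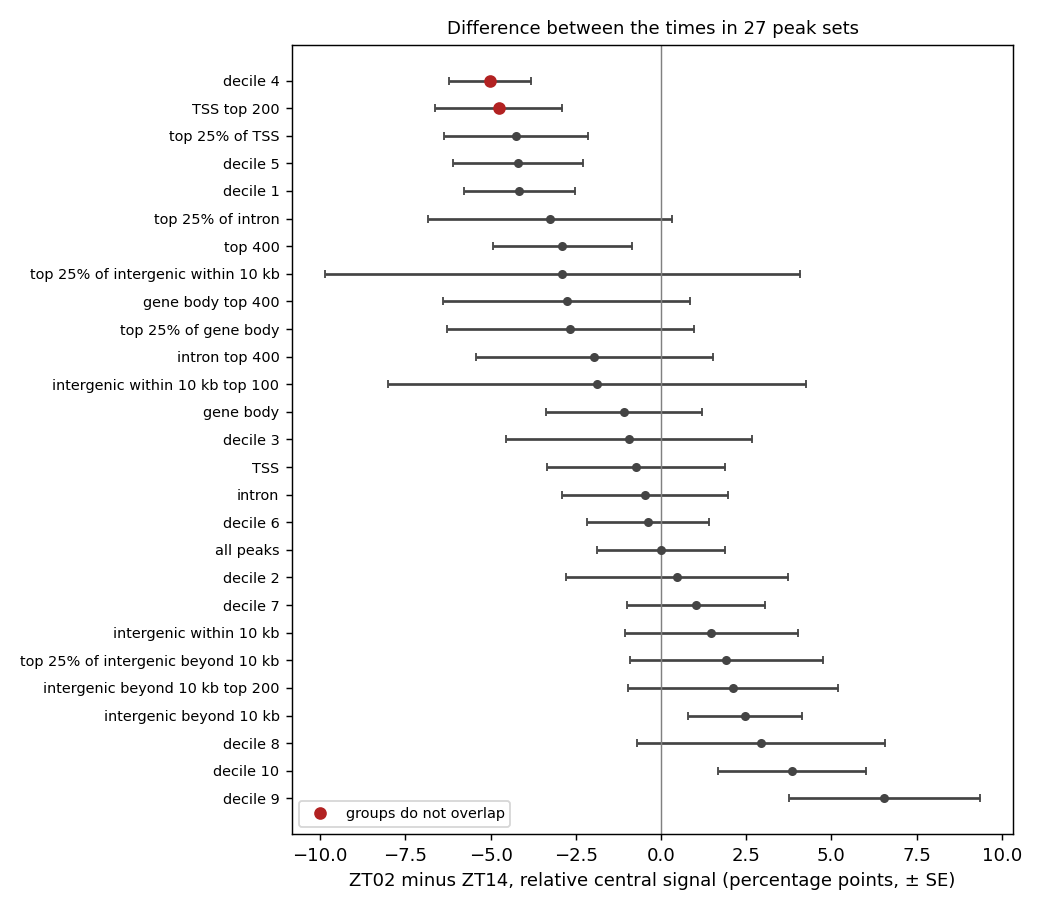
Difference of relative central signal between ZT02 and ZT14 (percentage points, ± SE of 4 mice at each time) in 27 peak sets, in order of size. Decile 4 and the top 200 TSS peaks, in red, have groups that do not overlap, and deciles 8 to 10 lie at the positive end, up to 6.56 in decile 9.

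Along the list the sign of the difference changed. ZT02 was lower on average in 5 deciles and higher in 5. In the first decile, relative central signal was 65.6%, 67.03%, 64.3% and 64.9% at ZT02 and 71.7%, 67.7%, 72.6% and 66.3% at ZT14. Only replicate 27 of ZT14 lay below a ZT02 mouse, replicate 12. The means were 65.4% ± 1.19 and 69.6% ± 3.05 (SD, n = 4 mice each). ZT02 minus ZT14 was -4.15 percentage points (SE 1.63) and missed the threshold (exact permutation p = 0.0571), and shifts from -8.31 to 0.73 were not rejected. Without ZT14 replicate 27 it was -5.25 (exact permutation p = 0.0286), and no other mouse left out brought it past the threshold (p = 0.0571 to 0.143).

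The difference in the first decile grew as the centre was taken narrower. Within 50 bp it was -9.31 percentage points, and within 250 bp it was -1.66 (exact permutation p = 0.0571 and 0.514). The 50 bp values were 53.4%, 61.1%, 52.8% and 56.5% at ZT02 and 68.6%, 65.4%, 66.3% and 60.8% at ZT14. Again replicate 12 of ZT02 and replicate 27 of ZT14 were the pair that overlapped. The second decile (0.472) and decile 6 (-0.384) were, with all peaks, the sets of smallest difference, and decile 5 had -4.19 (exact permutation p = 0.0857).

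In the last deciles the trough was shallower at ZT02. Decile 9, the set of largest difference, had 79.9%, 70.4%, 72.8% and 74.3% at ZT02 and 67.4%, 62.6%, 71.9% and 69.3% at ZT14. Replicate 26 of ZT14 lay above replicate 12 of ZT02, and the other ZT02 mice lay above all ZT14 mice. The difference was 6.56 percentage points (SE 2.81; exact permutation p = 0.0571, adjusted p = 0.386). The last decile had 76.6%, 70.1%, 75.8% and 74.5% at ZT02 and 67.4%, 69.9%, 75.04% and 69.2% at ZT14, a difference of 3.85 (exact permutation p = 0.114), and decile 8 had 2.93 (p = 0.457). None of the 3 last deciles passed the test by itself.

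**Figure D3:**
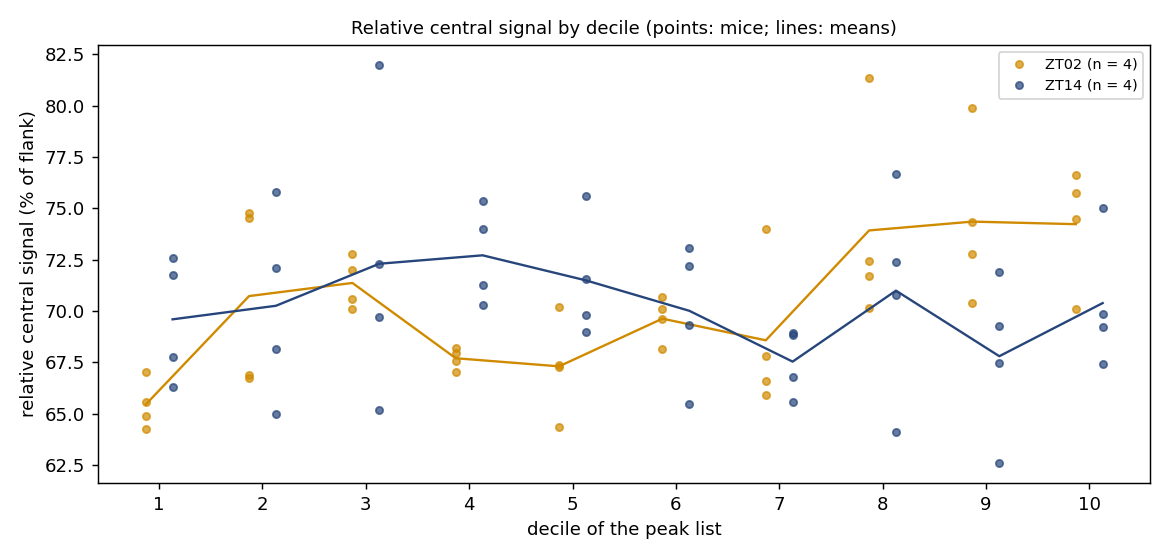
Relative central signal (percent of the flank) by decile of the peak list at ZT02 and ZT14. Points are the 4 mice of each time and lines join the means. The ZT02 line lies under the ZT14 line in decile 1 and in deciles 3 to 6. The largest gaps there are 4.15, 5.02 and 4.19 percentage points in deciles 1, 4 and 5. It lies above the ZT14 line in decile 2 and in deciles 7 to 10.

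This change of sign was measured as 1 slope per mouse, the least-squares slope of relative central signal over the 10 deciles. At ZT02 it was 1.22, -0.0096, 0.881 and 0.878 percentage points per decile in replicates 11, 12, 26 and 27, so that troughs became shallower down the list in all mice but replicate 12. At ZT14 it was -0.508, -0.178, -0.325 and 0.194. Only replicate 12 of ZT02 and replicate 27 of ZT14 overlapped. The means were 0.741 ± 0.525 and -0.204 ± 0.298 (SD, n = 4 mice each), and the difference of 0.945 percentage points per decile missed the threshold (SE 0.302; exact permutation p = 0.0571). With the centre within 50 bp the difference was 1.36, and without ZT02 replicate 12 it was 1.195, and both passed (exact permutation p = 0.0286 each). The other 11 of the 13 alternatives kept the sign and did not pass (exact permutation p up to 0.0857 with 1 library left out). As scaled by the authors, the slope of central signal differed by 0.065 signal units per decile and that of flank signal by 0.0013 (exact permutation p = 0.0571 and 0.971).

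The other times of day place these values. In wild type, relative central signal over all peaks was lowest at ZT06 (65.3%) and ZT10 (65.8%), then 70.3% at ZT02 and ZT14, and highest at ZT22 (72.4% ± 3.13) and ZT18 (72.6% ± 1.76; SD, n = 4 mice each). ZT02 and ZT14 thus stood side by side in the middle of the order, while in the first decile ZT02 (65.4%) stood between ZT10 (59.2% ± 4.65) and ZT14 (69.6%). Neighbours in these orders overlapped between mice, except ZT10 and ZT02 over all peaks, where the highest ZT10 mouse had 66.9997% and the lowest ZT02 mouse 68.5%. In decile 4, ZT02 (67.7%) lay near ZT06 (66.8% ± 3.60) and ZT14 (72.7%) near ZT18 (73.1% ± 3.60; SD, n = 4 mice each). In the top 200 TSS peaks, ZT02 (58.5%) lay between ZT06 (55.1% ± 5.43) and ZT18 (61.8% ± 2.83), and ZT14 had the highest mean of the 6 times (63.2%; SD, n = 4 mice each). Decile 9 followed another order, with the highest mean of the 6 times at ZT02 (74.4%) and the lowest at ZT06 (66.3% ± 4.27; SD, n = 4 mice each). The slope over deciles was 0.741 at ZT02, 1.05 ± 0.208 at ZT06 and 0.496 ± 0.448 at ZT10, and -0.204 at ZT14, -0.127 ± 0.340 at ZT18 and -0.0956 ± 0.654 at ZT22 (SD, n = 4 mice each). The means were positive at the 3 times in the light and negative at the 3 in the dark. Single mice of both signs occurred at each time but ZT06, and this split by light was not tested.

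The pair ZT06 and ZT18, also 12 h apart and from other libraries, was set beside ZT02 and ZT14. ZT06 minus ZT18 was -7.34 percentage points over all peaks and -14.7 in the first decile (exact permutation p = 0.0286 each), against -0.0077 and -4.15 for ZT02 minus ZT14. The 2 contrasts differed by 7.33 and 10.6 percentage points. An exact sign-flip permutation test over the 4 replicate numbers gave p = 0.125 for both, the smallest it can give. The number matches different mice, so the spread behind this test depends on a match that the data did not bear out. For the slope over deciles the contrasts were 0.945 and 1.18 percentage points per decile, a difference of -0.232 (exact sign-flip permutation p = 0.875).

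The same 2 times were compared in Bmal1-/- livers, which lack the BMAL1 subunit. There relative central signal over all peaks was 80.7% ± 5.13 at ZT02 and 80.1% ± 5.39 at ZT14 (SD, n = 4 mice each; exact permutation p = 0.914), and in the first decile it was 79.7% ± 6.90 and 80.4% ± 8.05 (exact permutation p = 0.886). ZT02 minus ZT14, taken between mice that share only a replicate number, differed between genotypes by -0.641 percentage points over all peaks and by -3.48 in the first decile (exact permutation p = 0.886 and 0.429). The first-decile value ran from -6.40 without Bmal1-/- replicate 9 to -0.741 without replicate 5. As with the other pair of times, the spread and p of each comparison between genotypes depend on this match of different mice. The spread of relative central signal in the sets named here was wider between Bmal1-/- mice than between wild-type mice at both times. For the slope over deciles it was narrower in Bmal1-/- (SD 0.267 against 0.525 at ZT02 and 0.122 against 0.298 at ZT14). In Bmal1-/- the sets singled out by their wild-type difference had no difference past the test. Decile 4 had 84.1% ± 5.76 at ZT02 and 81.9% ± 7.87 at ZT14 (exact permutation p = 0.657), the top 200 TSS peaks 66.6% ± 5.34 and 64.98% ± 7.33 (p = 0.743), and decile 9 77.3% ± 6.23 and 78.96% ± 5.73 (p = 0.657; SD, n = 4 mice each). The last decile, named for its place in the list, had a change of -1.57 against 3.85 in wild type (exact permutation p = 0.0857). The slope over deciles was -0.377 ± 0.267 at ZT02 and -0.319 ± 0.122 at ZT14 in Bmal1-/- (SD, n = 4 mice each). Its change was 1.72, 0.168, 1.21 and 0.683 in the wild-type series and -0.264, -0.0195, 0.279 and -0.228 in the Bmal1-/- series 5, 8, 9 and 10. The mean changes differed by 1.003 percentage points per decile and missed the threshold (exact permutation p = 0.0571). The difference was 1.43 with the centre within 50 bp, 0.960 with the flank beyond 750 bp and 1.26 without wild-type replicate 12. Each of these had exact permutation p = 0.0286, under the same match. The other 8 of the 11 alternatives did not pass (exact permutation p up to 0.0857).

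**Figure D4:**
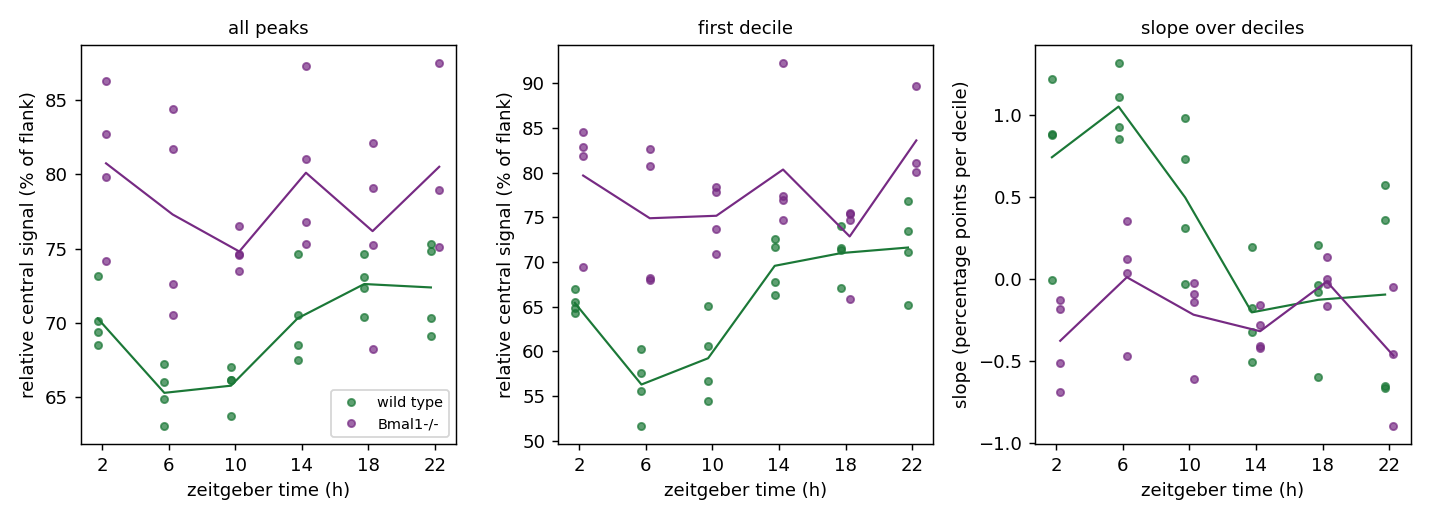
Relative central signal over all peaks and in the first decile (percent of the flank) and the slope over deciles (percentage points per decile) at 6 zeitgeber times in wild-type and Bmal1-/- livers. Points are mice (4 at each time and genotype, 3 in Bmal1-/- at ZT22) and lines join means, and wild-type ZT02 and ZT14 have the same mean of 70.3% over all peaks but slopes of 0.741 and -0.204.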

How the data were processed

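MNase-seq was measured in 47 mouse livers. Per the submitters' processing notes, CASAVA 1.7, Bowtie and mm9 were used. The deposited values are MNase signal, a scaled coverage that the authors averaged over peak sets. No source used here gives the scaling target, fragment length or duplicate handling. A second deposited table gives other values, the peak positions, per the file headers. Rows were matched to mice by title. Depth was read from the step of which signal values in the top 100 intergenic peaks within 10 kb are whole multiples: 100% were whole within 0.1 of a step.

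Each profile was scaled to its flank, which removes a library-wide scale but also any change shared by centre and flank. Exact permutation tests used Python 3.11.15. limma 3.58.1 (R 4.3.3, eBayes with trend) used 24 wild-type libraries in 6 time groups, with Benjamini-Hochberg adjustment over 8100 values. Both were checked on simulated data. For limma these had independent noise and shifts of several SDs, so that check does not tell whether smaller differences would be called. The named sets were, by rule, all peaks, the first and last deciles, each class, and the 3 sets of largest and of smallest difference. Groups, sets and lists were chosen with earlier results of these data known. The slope comparison between genotypes and between time pairs and the per-mouse values within 50 bp were added after the data were seen. So was the slope of central signal on the scale of the authors. Replicate numbers did not pair mice and were not used between ZT02 and ZT14, but the comparisons with Bmal1-/- and with ZT06 and ZT18 took differences within a number. Intervals of shifts invert the exact test. The labels name each library as a mouse, and p-values measure the spread between mice.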

Additional observations from a re-analysis of the deposited data

Results flagged for a closer look

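In 2 of 74 groups of 4 mice, 1 mouse stood apart by a gap test that chance passes in about 5% of groups. At ZT14, replicate 27 had 59.1% relative central signal in the set of the top 100 intergenic peaks within 10 kb, and the nearest mouse 81.6%. At ZT02, replicate 11 had 74.1% at gene body peaks, and the nearest mouse 71.4%.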

How the results depend on the processing

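Limma called 0 higher and 0 lower values under every alternative run (8 libraries only, no trend, pseudocount 10, without the lowest 25% of values, the scale of the authors, the all-peak profile alone, each library left out, and the replicate block). Fitted alone, the all-peak profile had 120 bp at an unadjusted p under 0.05, against 0 bp. The replicate block is a check only, since deviations of same-numbered mice correlated by -0.122 to 0.172 and did not pair them. 2 of 4 mice correlated best with their own number, and an exact sign-flip over 4 pairs cannot give a p below 0.125, so 0 sets passed under it at an unadjusted p. With the centre within 250 bp 0 sets passed at an unadjusted p, and with 1 library left out 1 to 2 did, against 2. The all-peak difference was 0.498 with the centre within 250 bp, 0.00049 as a log2 ratio and -0.961 to 1.45 with 1 library left out. Intron minus TSS was -0.543 with the centre within 250 bp and -1.12 to 1.68 with 1 library left out. The band of 150 to 500 bp was -0.0224 with the flank taken farther out and -0.497 to 0.828 with 1 library left out. Central and flank signal on the scale of the authors ranged from -0.154 to 0.0788 and from -0.160 to 0.0214. The slope difference was 1.36 with the centre within 50 bp and 0.787 to 1.195 with 1 library left out, and the first-decile difference -5.25 to -3.15. The genotype difference over all peaks was -1.73 to 1.402 with 1 series left out, that in the first decile -6.40 to -0.741, and that of the slope 0.744 to 1.26, 1.43 with the centre within 50 bp and 0.960 with the flank beyond 750 bp. The cause was not tested. With 4 mice at each time, exact p has few levels, and 0 of the 27 sets passed adjustment under each alternative run.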
